A study of Homo sapiens with 2 samples.

Results

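Expressed long intergenic non-coding RNA genes with LINC symbols were examined in H1299, an established line grown from a lymph node metastasis of a non-small cell lung carcinoma. A gene was included when the deposited table typed it as lncRNA, when its symbol was LINC followed only by digits, and when its counts summed over both libraries reached at least 100. This gave 121 genes of the 2157 LINC genes and 38637 genes listed. The genes were thus selected on their summed counts, so their abundance is a description and supports nothing else. The study holds 2 poly(A)-selected RNA-seq libraries, 1 per group, both labelled wild type in genotype. The control library is labelled with no treatment, and its title ends in nc. The other library is labelled PHF12 KD, and its title carries the prefix si. Each ratio given divides the level in the knockdown library by that in the control. The ratios have no replicate check and describe these libraries rather than the conditions. Their 95% intervals cover counting error only.

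Long non-coding RNAs are transcripts without a long open reading frame, most of them made by RNA polymerase II, capped, spliced and polyadenylated like mRNA. The LINC symbol is given to genes that lie apart from protein-coding genes and have no better name, so it joins genes by position and not by function. Many are expressed at low levels and in few tissues, and several are known for high levels in lung tumours. PHF12 is a PHD zinc finger protein that recruits SIN3 and histone deacetylases to chromatin, and the series asks how its loss relates to HDAC1 and EGFR/AKT signalling.

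Library totals were close, with 24740581 counts for the control and 26084594 for the knockdown. PHF12 itself had 947 and 756 counts, at a log2 ratio of −0.41 (−0.55 to −0.27), so its transcript was lower but still present. The epithelial keratins KRT8 and KRT18 and the intermediate filament VIM were abundant in both libraries. Of the other epithelial markers, EPCAM had only 19 and 25 counts and CDH1 0. Alveolar markers were absent or rare, with SFTPC and SFTPA1 at 0, SFTPB at 1 and 1, NAPSA at 8 and 12 and NKX2-1 at 17 and 5 counts. Summed levels of 5 blood markers were 1.05 and 1.03 TPM (a level per gene length, scaled to the same sum in each library), with PTPRC, CD3E and HBB at 0, and those of 3 endothelial markers 1.12 and 1.23 TPM.

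The expressed LINC genes made up a small part of the transcriptome, slightly larger in the knockdown library. They took 30251 counts in the control library, 0.122% of all counts (0.121 to 0.124, exact Clopper-Pearson), and 33946 counts in the knockdown library, 0.130% (0.129 to 0.132). Of all lncRNA counts they held 6.97% and 7.24%. The log2 ratio of the summed counts was 0.08 (0.06 to 0.10). Genes below the inclusion floor added little, since the 121 genes held 88.6% and 88.8% of the counts of all LINC genes.

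Counts per gene ran from 44 to 1336 in the control library, with a median of 136, and from 44 to 1599 in the knockdown library, with a median of 164. On the scale of TPM the mean level over both libraries ranged from 0.716 for LINC01588 to 76.2 for LINC00963, with a median of 6.74. This was below the median of 20.2 over all 13370 genes that reached the same floor. Of the 121 genes, 47 had a mean of at least 10 TPM, 6 of at least 50 TPM and 13 of less than 2 TPM. For scale, the abundant lncRNA NORAD, which binds PUMILIO proteins, stood at 172 and 199 TPM, above every LINC gene here. MALAT1, GAS5 and SNHG1 also stood above them all in each library. NEAT1, at 38.5 and 51.4 TPM, stood below LINC00963, and H19 was at 0. Near the floor, LINC02802 had 56 and 44 counts, LINC01770 55 and 47, LINC02777 45 and 57, and LINC02438 58 and 46. Just below it were LINC01534 with 35 and 63 counts, LINC01719 with 42 and 56, LINC01203 with 49 and 48, and LINC01569 and LINC01776 with 93 counts in sum each.

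The most abundant was LINC00963, a gene on chromosome 9 from 129488660 to 129513686 (hg38, plus strand) first studied in prostate cancer. It had 1336 and 1599 counts, 70.9 and 81.4 TPM, and a log2 ratio of 0.17 (0.07 to 0.28). LINC00513, on chromosome 7 from 130913464 to 130921946, followed with 52.4 and 89.9 TPM, and had the higher level of the pair in the knockdown library. LINC02575, on chromosome 21, stood at 52.8 and 68.3 TPM, and LINC02432, on chromosome 4, at 51.0 and 58.4 TPM. LINC00938, on chromosome 12 beside the chromatin remodelling gene ARID2, stood at 51.9 and 54.2 TPM.

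Next in order were LINC00665, LINC00839 and LINC01419, and each stood lower in the knockdown library on the TPM scale. LINC00665, a gene of a zinc finger cluster on chromosome 19 studied in lung adenocarcinoma, had 55.2 and 50.9 TPM. LINC00839, on chromosome 10, had 51.3 and 47.1 TPM, and LINC01419, on chromosome 8, 44.9 and 43.3 TPM. LINC00944, LINC02482, LINC01608 and LINC00941 filled the places down to rank 12. Of these, LINC01608 stood at 39.5 and 31.7 TPM and LINC00941 at 31.4 and 35.9 TPM. The counting intervals of LINC00938, LINC02432, LINC01419, LINC00944 and LINC02482 included a log2 ratio of 0, so these 5 did not differ between the libraries beyond counting error.

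**Figure D1:**
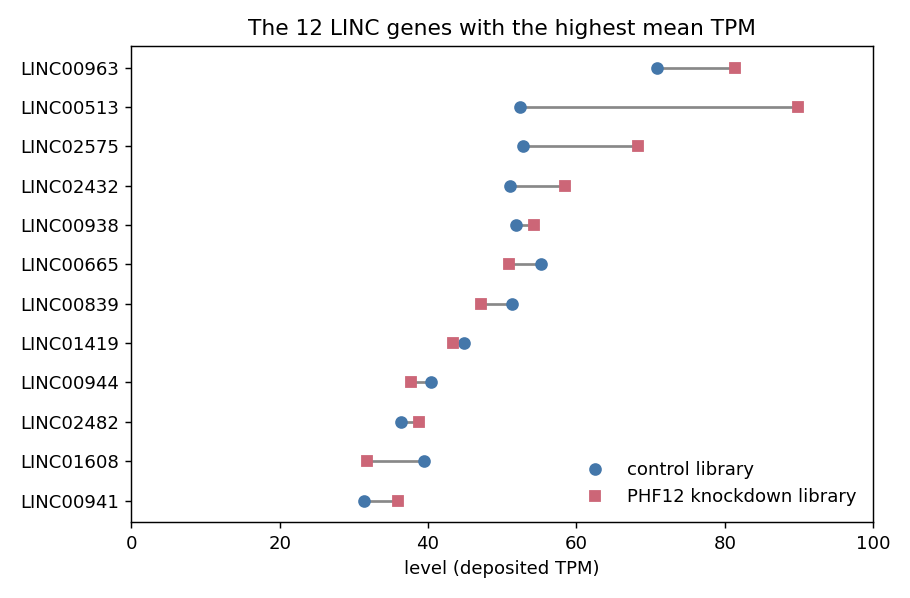
Level in deposited TPM (x axis) of the 12 LINC genes with the highest mean TPM, 1 row per gene, with a circle for the control library and a square for the PHF12 knockdown library. LINC00513 has the widest gap between its symbols, from 52.4 to 89.9 TPM, while the others lie closer together.

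No expressed LINC gene differed 2-fold or more between the libraries in either direction. Over all 13370 genes with the same count floor 0.15% were at least 2-fold higher and 0.12% at least 2-fold lower. At a fold of at least 1.5, 7 LINC genes were higher (5.79%) and 0 lower, where 1.5% of all genes were higher and 1.56% lower. Among other lncRNAs 3.82% were higher and 1.16% lower, so they too had more genes past this fold on the higher side. These 7 were LINC01535, LINC02454, LINC00513, LINC01885, LINC01588, LINC01521 and LINC00673. The background depends on depth: among genes with 100 to under 300 counts in sum 4.98% were at least 1.5-fold higher and 5.81% lower, and 5 of the 60 LINC genes in that range were higher (8.33%) and 0 lower. From 300 to under 1000 counts 1.7% of all genes were higher and 1.57% lower, and 1 of 43 LINC genes was higher. With 1000 counts or more 0.62% were higher and 0.572% lower, and 1 of 18 LINC genes was higher. The share of all genes past this fold was thus lower at greater depth, and 60 of the 121 LINC genes lie in the range where it is highest.

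Intervals gave a similar picture of many small differences. The counting interval lay above 0 for 23 of the 121 LINC genes and below 0 for 13 (10.7%), against 21.6% and 22.1% of all genes. Among the 863 other lncRNAs these shares were 15.9% and 9.04%. None of these shares was tested against another. Fewer counts give wider intervals, and the LINC genes had a median of 308 summed counts against 1604 over all genes. From 100 to under 300 counts, 6 of 60 LINC genes had an interval above 0 and 4 one below 0, where 8.56% and 11.7% of all genes did. From 300 to under 1000 counts these were 9 and 5 of 43 LINC genes, against 14.3% and 18.8%. With 1000 counts or more they were 8 and 4 of 18, against 27.3% and 25.8%.

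**Figure D2:**
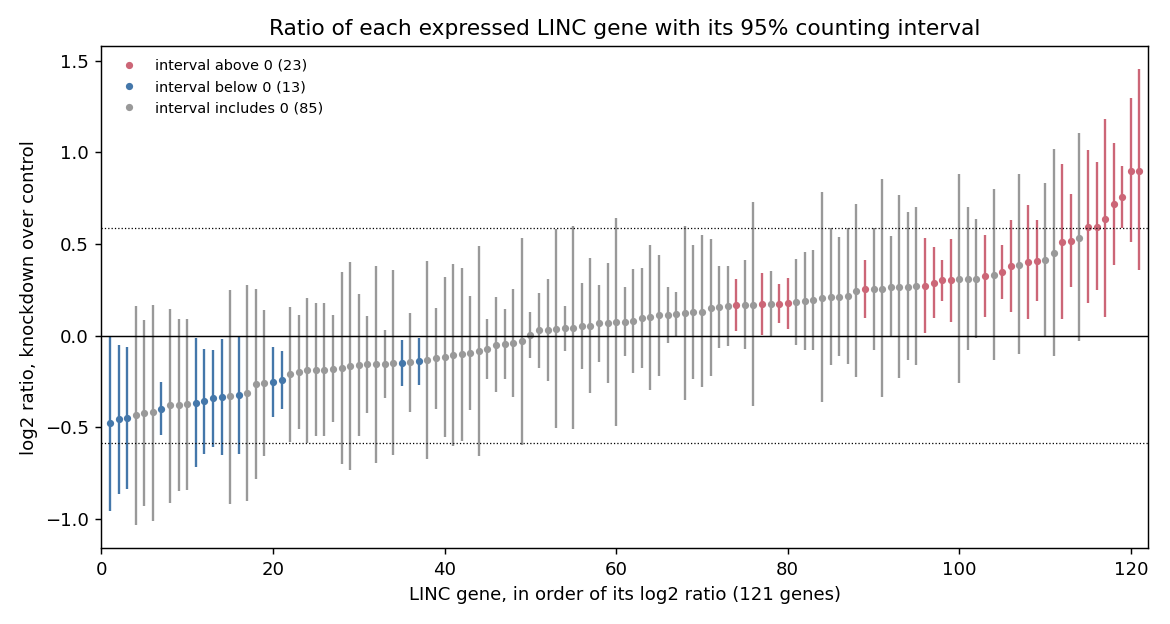
Log2 ratio of the knockdown over the control library (y axis) for the 121 expressed LINC genes in order of their ratio (x axis), with vertical lines for the exact 95% counting interval and dotted lines at a fold of 1.5 in either direction. Intervals of 23 genes lie above 0, those of 13 below 0 and those of the remaining genes include 0.

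LINC01535 and LINC02454 had the highest ratios. LINC01535, on chromosome 19 from 37251885 to 37265535 (plus strand) in a cluster of zinc finger genes, was counted 44 and 87 times, at 2.39 and 4.53 TPM, with a log2 ratio of 0.90 (0.36 to 1.46). LINC02454, on chromosome 12 from 65602869 to 65612987 (plus strand) and known from thyroid cancer, was counted 83 and 164 times, at 15.3 and 28.96 TPM, with a log2 ratio of 0.90 (0.51 to 1.297). Both intervals exclude 0 but are wide, since each gene had fewer than 100 counts in the control library. LINC02454 overlaps LOC100507065 on the opposite strand, which had 31 and 50 counts. LINC01535 begins 3145 bases downstream of the zinc finger gene ZNF383, which stood at −0.15 on the log2 scale.

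LINC00513 combined a high level with a high ratio. Its counts were 441 and 789, at a log2 ratio of 0.75 (0.58 to 0.93). It has been described as a positive regulator of interferon signalling linked to lupus risk. The gene overlaps LINC-PINT, another long non-coding RNA, on the opposite strand. LINC-PINT had 753 and 894 counts, with a log2 ratio of 0.16 (0.02 to 0.30), lower than that of LINC00513. Without a stated strand setting, reads of the shared part cannot be told apart.

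The other genes past a fold of 1.5 had fewer reads. LINC01885, on chromosome 2, had 120 and 209 counts, with a log2 ratio of 0.72 (0.39 to 1.05). LINC01588, on chromosome 14, had 48 and 79 counts and one of 0.63 (0.10 to 1.18). LINC01521 and LINC00673 lay just past the threshold, each at a fold of 1.51. LINC01521, on chromosome 22 from 31346759 to 31351155, was counted 113 and 181 times and starts 413 bases from the start of PATZ1, a zinc finger repressor gene on the other strand. PATZ1 itself had a log2 ratio of −0.16 (−0.29 to −0.02), opposite in direction. LINC00673, on chromosome 17 and known as a pancreatic cancer risk locus, had 80 and 128 counts, 3.43 and 5.26 TPM, and a log2 ratio of 0.59 (0.18 to 1.01).

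Promoter windows are shown for the 3 highest ratios and, for contrast, for LINC00963, the most abundant, and for LINC00205 and LINC01521, which start close to a coding gene on the other strand. Each window runs from 250 bases before to 50 after the start in RefSeq (GRCh38.p14), which equals the start in the deposited table for these genes. Capitals mark the TATA box word TATAAA, the GC box word GGGCGG, the CCAAT box and the cAMP response word TGACGTCA on either strand, and adjoining matches run together. The windows are chr19:37251635-37251934, plus strand for LINC01535, chr12:65602619-65602918, plus strand for LINC02454, and chr7:130913214-130913513, plus strand for LINC00513. For the other genes they are chr9:129488410-129488709, plus strand for LINC00963, chr21:45287802-45288101, plus strand for LINC00205, and chr22:31346509-31346808, plus strand for LINC01521.
LINC01535: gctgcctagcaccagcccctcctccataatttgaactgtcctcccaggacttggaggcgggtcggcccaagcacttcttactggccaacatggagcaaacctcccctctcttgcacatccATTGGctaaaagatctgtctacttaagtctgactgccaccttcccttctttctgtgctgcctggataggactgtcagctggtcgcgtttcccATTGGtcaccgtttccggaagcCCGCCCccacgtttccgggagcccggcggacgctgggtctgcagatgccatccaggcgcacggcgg
LINC02454: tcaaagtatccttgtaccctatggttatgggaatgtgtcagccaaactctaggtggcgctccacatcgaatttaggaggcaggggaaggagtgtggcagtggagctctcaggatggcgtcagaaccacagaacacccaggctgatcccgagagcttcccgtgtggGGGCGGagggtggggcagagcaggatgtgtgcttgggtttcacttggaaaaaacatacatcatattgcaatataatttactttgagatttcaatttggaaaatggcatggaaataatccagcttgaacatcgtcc
LINC00513: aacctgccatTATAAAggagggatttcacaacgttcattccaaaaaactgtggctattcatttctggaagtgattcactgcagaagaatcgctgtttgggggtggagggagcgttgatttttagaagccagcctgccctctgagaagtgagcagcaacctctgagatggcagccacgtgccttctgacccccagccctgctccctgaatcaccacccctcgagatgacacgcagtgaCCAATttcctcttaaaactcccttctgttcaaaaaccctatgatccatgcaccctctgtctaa
LINC00963: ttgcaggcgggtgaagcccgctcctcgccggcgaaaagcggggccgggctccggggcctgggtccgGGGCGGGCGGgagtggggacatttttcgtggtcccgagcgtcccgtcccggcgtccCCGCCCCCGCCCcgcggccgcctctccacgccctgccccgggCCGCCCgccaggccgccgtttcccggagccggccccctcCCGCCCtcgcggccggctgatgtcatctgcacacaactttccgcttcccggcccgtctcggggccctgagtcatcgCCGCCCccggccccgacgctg
LINC00205: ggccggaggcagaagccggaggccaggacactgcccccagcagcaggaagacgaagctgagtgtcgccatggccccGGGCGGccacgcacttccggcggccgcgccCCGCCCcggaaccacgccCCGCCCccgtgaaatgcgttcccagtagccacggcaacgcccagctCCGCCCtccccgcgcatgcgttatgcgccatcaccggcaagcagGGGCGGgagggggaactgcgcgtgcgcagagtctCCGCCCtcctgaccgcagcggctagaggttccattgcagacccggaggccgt
LINC01521: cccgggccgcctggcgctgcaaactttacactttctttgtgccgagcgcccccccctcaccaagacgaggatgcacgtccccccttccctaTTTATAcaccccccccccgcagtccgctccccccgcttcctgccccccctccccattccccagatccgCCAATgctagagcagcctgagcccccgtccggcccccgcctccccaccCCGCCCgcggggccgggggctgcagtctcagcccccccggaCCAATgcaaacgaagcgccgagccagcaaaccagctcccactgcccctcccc

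These windows differ in base composition. LINC00963 has 43 CG pairs and 7 GGGCGG words and LINC00205 34 CG pairs and 6 such words, the make-up of CpG island promoters. LINC01521 has 22 CG pairs, 1 TATAAA, 2 CCAAT words and 1 GGGCGG word. LINC00513 has 6 CG pairs, 1 TATAAA and 1 CCAAT word, LINC02454 7 CG pairs and 1 GGGCGG word, and LINC01535 15 CG pairs, 2 CCAAT words and 1 GGGCGG word. Among the 3 with the highest ratios no word was common to all, and a match is a description of letters, not a site.

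RefSeq promoters were found for 83 of the 121 genes. GGGCGG was present in 54.2% of these windows, CCAAT in 43.4%, TATAAA in 11 of 83 (13.3%) and TGACGTCA in 2.41%. Over all 27305 promoters in the table GGGCGG was in 44.6%, CCAAT in 35.7%, TATAAA in 3264 windows (11.95%) and TGACGTCA in 1.98%. Among the 10726 promoters of genes with at least 100 counts in sum, GGGCGG was in 70.4% and TATAAA in 5.20%. In the same set CCAAT was in 36.96% and TGACGTCA in 3.27%. Beside genes past the same floor, the expressed LINC genes thus had GGGCGG less often and TATAAA more often. None of these shares was tested. For LINC genes below the floor GGGCGG was in 16.4% of 1402 windows, and the median number of CG pairs was 4 where the expressed LINC genes had 20. Protein-coding genes with at least 100 counts in sum had a median of 27. Expressed LINC genes therefore lay between LINC genes below the floor and coding genes above it in this measure.

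Further genes with an interval above 0 stood between 1.12 and 1.43 times the control level. LINC00476, on chromosome 9, had 212 and 322 counts, with a log2 ratio of 0.52 (0.26 to 0.78). It lies on the strand opposite ERCC6L2, a DNA repair helicase gene with a ratio of 0.13 (0.02 to 0.24). LINC00886 had 80 and 121 counts and a ratio of 0.51 (0.09 to 0.94). Among the well-covered genes, LINC00205 had 1155 and 1510 counts, with a log2 ratio of 0.30 (0.19 to 0.41), and LINC02575 662 and 892 counts and one of 0.35 (0.20 to 0.49). LINC01410, in the pericentromeric part of chromosome 9, had 294 and 414 counts, and 643 bases of its transcript match another gene at 98% identity or more, so its reads are uncertain.

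On the lower side no gene passed a fold of 1.5, and the ratios of the 13 genes with an interval below 0 ran from −0.48 to −0.14. Under total counts, DESeq2 size factors and the deposited TPM as scalings, 11, 8 and 7 of these intervals stayed below 0. Intervals above 0 went from 23 to 25, 28 and 28 under the same scalings. LINC00888 had 88 and 67 counts and the lowest log2 ratio, −0.48 (−0.96 to −0.00), with its interval just short of 0. LINC01293 had 119 and 92 counts and a ratio of −0.46 (−0.86 to −0.05), and LINC01061 had 130 and 101 counts and one of −0.45 (−0.84 to −0.06). Better supported was LINC02693, on chromosome 17 from 21528310 to 21551678 (minus strand), with 882 and 709 counts, 12.5 and 9.67 TPM, and a log2 ratio of −0.40 (−0.54 to −0.26). GENCODE release 29 types the matching gene as protein-coding, against the lncRNA type of the deposited table. LINC01608 had 264 and 221 counts and a ratio of −0.34 (−0.61 to −0.08).

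LINC01096, on chromosome 4, lies 1568 bases from NKX3-2, a homeobox gene of skeletal development, on the same strand. It had 226 and 187 counts, with a log2 ratio of −0.36 (−0.65 to −0.07), and NKX3-2 stood at −0.21. LINC00863, at −0.33, overlaps NUTM2A-AS1 on the opposite strand, which was higher in the knockdown library at 0.26 (0.05 to 0.48). LINC01347, at −0.37 (−0.72 to −0.02), shares 1213 bases of near-identical sequence with other genes. LINC00470, with 178 and 151 counts, stood at −0.32 with an upper bound of −0.00.

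**Figure D3:**
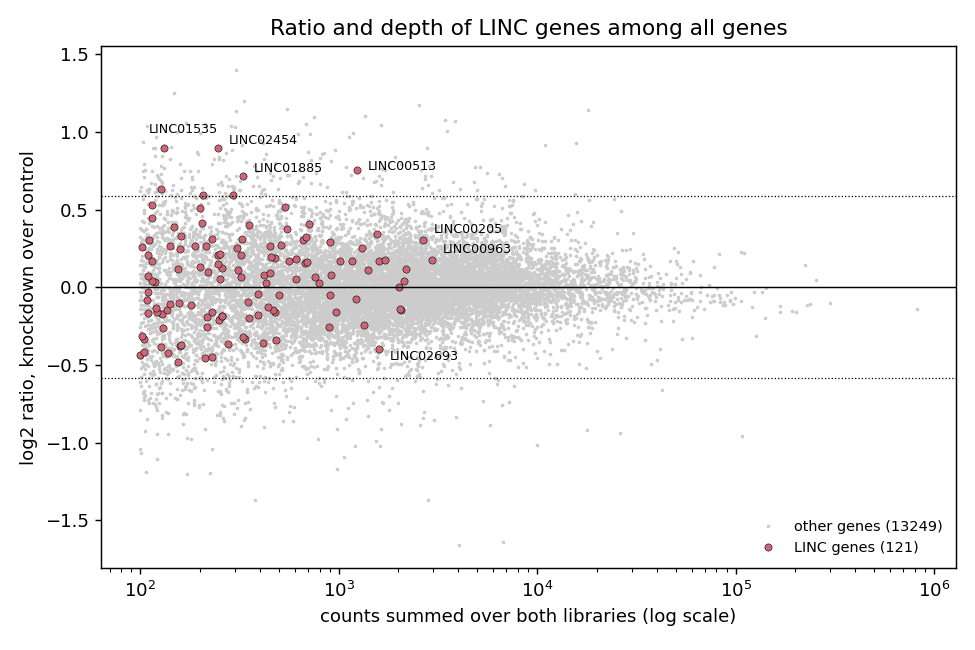
Log2 ratio of the knockdown over the control library (y axis) against the counts summed over both libraries (x axis, log scale), with LINC genes as outlined points over all other genes in grey and dotted lines at a fold of 1.5. LINC genes lie in the range from 100 to 2935 counts and stay above the lower dotted line, while LINC00513 stands apart from the others with 1000 or more counts.

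LINC genes known from lung cancer or with a described role were looked up from a pair of lists holding 36 names, of which 25 are listed in the table under that name. Of these, 13 were expressed and 12 were below the floor, 3 of them, among them LINC00511 and LINC00473, at 0 counts in both libraries. Of the 13, 8 were above a log2 ratio of 0, where 48.1% of all genes and 59.5% of the 121 expressed LINC genes were. Of the 13, 5 had an interval above 0 and 3 one below 0, where 21.6% and 22.1% of all genes did, and 13 genes are too few to read a difference from these shares. The 11 lung cancer genes had a median log2 ratio of 0.17, where all genes had one of −0.01 and the 121 LINC genes one of 0.08. LINC00673 was the only one past a fold of 1.5.

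LINC00857, which promotes proliferation of lung cancer cells, had 230 and 317 counts, with a log2 ratio of 0.38 (0.13 to 0.63). It begins 1902 bases from the start of ANXA11, which was at −0.00. LINC01234, studied as an oncogenic RNA in non-small cell lung cancer, had 395 and 512 counts and a ratio of 0.29 (0.10 to 0.48). LINC00941, linked to metastasis in several carcinomas, had 529 and 631 counts and a ratio of 0.17, with a lower bound of 0.00. Together with LINC00963 these genes were slightly higher in the knockdown library.

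Other widely studied genes went the other way, and by small amounts. LINC00662 had 474 and 422 counts, with a log2 ratio of −0.25 (−0.45 to −0.06). LINC00472, described as a tumour suppressor in breast cancer, had 705 and 632 counts and one of −0.24 (−0.40 to −0.09). LINC00665 had 1043 and 1003 counts and one of −0.14 (−0.27 to −0.01). LINC00460, LINC01116, LINC00339, LINC00467 (which encodes a mitochondrial micropeptide) and LINC01138 had intervals that included 0, with ratios of 0.31, 0.12, 0.18, −0.19 and −0.21. LINC01089, also called LIMT and known as repressed by EGF, was outside the lists and named after its values were seen. It had 115 and 102 counts and a ratio of −0.26 (−0.66 to 0.14).

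As a class, the LINC genes were centred slightly above all genes. Their median log2 ratio was 0.08, with the middle of the distribution from −0.16 to 0.26 (quartiles), and 72 of 121 were above 0 (59.5%). Of all genes 48.1% were above 0, with a median of −0.01. That share moved with the scaling, to 50.1% with total counts, 52.3% with DESeq2 size factors and 53.6% with the deposited TPM, while that of the LINC genes stayed at 59.5%. Other lncRNAs were placed alike: 863 genes had a median of 0.06 and 58.6% above 0. Antisense RNAs with the suffix -AS had a median of 0.05 (266 genes), divergent transcripts with the suffix -DT one of 0.07 (71 genes) and lncRNAs with LOC symbols one of 0.08 (345 genes). Host genes of small RNAs, such as the SNHG genes, stood lower, with a median of −0.08 over 34 genes. The offset of the LINC genes was small beside the spread among the genes.

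**Figure D4:**
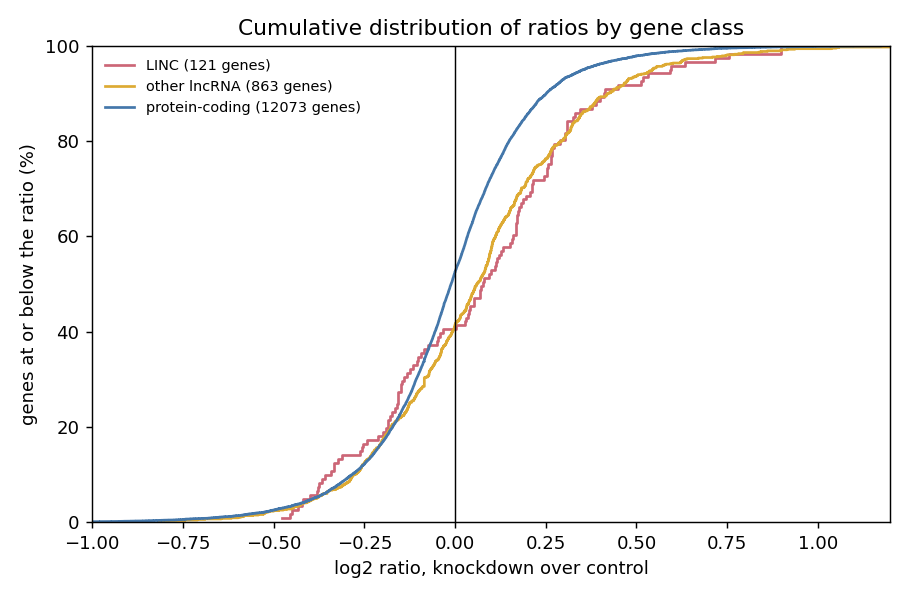
Cumulative share of genes (y axis, percent) at or below a log2 ratio of the knockdown over the control library (x axis) for LINC genes, other lncRNAs and protein-coding genes with at least 100 summed counts. The curves of LINC genes and other lncRNAs lie to the right of that of protein-coding genes at ratios above 0, with medians of 0.08, 0.06 and −0.01.

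Most of these genes overlapped no protein-coding gene, as their name implies, though some overlapped other listed genes. Of the 121 genes, 78 (64.5%) overlapped no other gene of the table, and 43 overlapped at least 1, on the opposite strand in 34 cases and on the same strand in 13. For 12 of them a partner was a protein-coding gene, and for 15 a partner had at least 100 counts in sum. GENCODE release 29, matched by symbol or identifier and position for 116 genes, typed 90 as lincRNA, 11 as processed transcripts, 6 as transcribed unprocessed pseudogenes and 4 as antisense. Only 20 of the 116 had a single exon in their longest transcript. Listed lengths ran from 380 to 11193 bases, with a median of 2372.

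The genes lay on 21 chromosomes, with 16 on chromosome 1, 11 on chromosome 7 and 9 on chromosome 4. On chromosome 7, 10 of 11 were above 0, with a median log2 ratio of 0.19, where all genes of that chromosome had a median of −0.02 and 47.1% above 0. On chromosome 1 only 5 of 16 were above 0, with a median of −0.13 against −0.01 for all its genes, 47.1% of which were above 0. On chromosome 4, 3 of 9 were above 0, with a median of −0.12 against 0.01 and 53.9% for all its genes. Most of these genes had an interval that included 0. Intervals above and below 0 numbered 4 and 0 on chromosome 7, 0 and 1 on chromosome 1, and 1 and 2 on chromosome 4. No difference between chromosomes was tested. Several of the genes on chromosome 1, LINC02802, LINC01347, LINC00869, LINC00623 and LINC01145, lie in duplicated sequence and share at least 500 bases at 98% identity with other genes. In all 9 of the 116 genes did so, and their median was −0.15, where that of the other 107 was 0.08. The part of read assignment in these medians was not tested.

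The distance to the nearest protein-coding gene had a median of 25444 bases. It was 5 kb or less without overlap for 21 genes, above 50 kb for 46 and above 500 kb for 9. Genes were called head to head where the starts face each other across the gap on opposite strands, convergent where the ends do, and tandem on the same strand. Among genes that do not overlap their nearest coding neighbour, medians were higher on the opposite strand than in tandem. Of 28 head-to-head genes 22 were above 0, with a median log2 ratio of 0.14, and of 22 convergent genes 16 were, with a median of 0.16. Of 34 genes downstream in tandem 16 were above 0 (median −0.04), and of 25 genes upstream in tandem 9 were (median −0.13). Genes overlapping a coding gene had a median of 0.16 on the opposite strand (6 of 8 above 0) and 0.27 on the same strand (3 of 4 above 0), so the order by strand did not hold there. The classes overlapped widely, the grouping was made with the values at hand, and with 1 library per group no test of it was made.

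**Figure D5:**
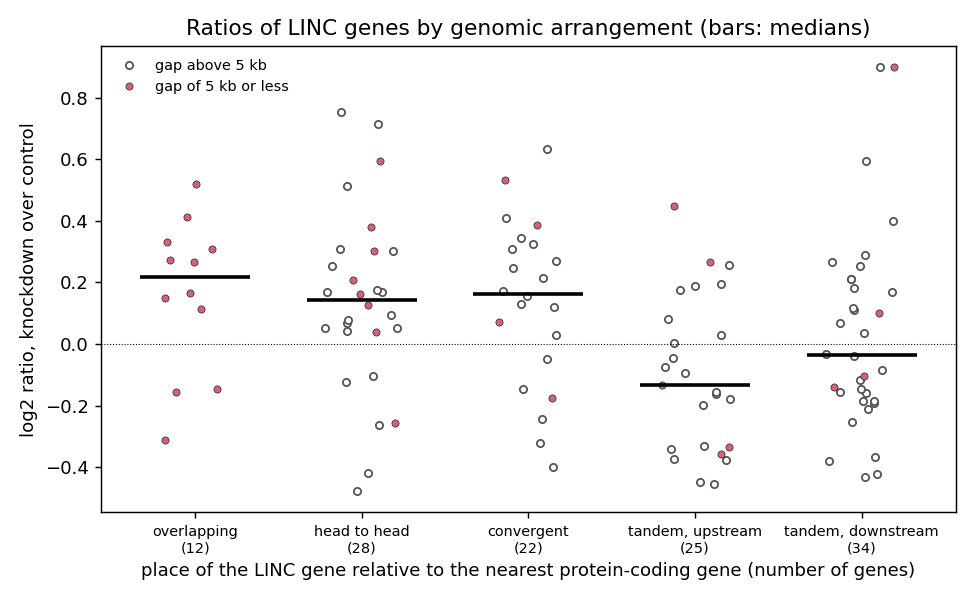
Log2 ratio of the knockdown over the control library (y axis) for the 121 LINC genes by their place relative to the nearest protein-coding gene (x axis), filled where the gap is 5 kb or less or the genes overlap, with bars at the medians. Medians are 0.22 for overlapping genes, 0.14 head to head, 0.16 convergent, −0.13 upstream in tandem and −0.04 downstream in tandem, and all classes span 0.

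Divergent pairs, the head-to-head genes whose start lies within 5 kb of the start of the coding gene, numbered 8. LINC00205 starts 138 bases from POFUT2, which encodes a fucosyltransferase, and both stood above 0, at 0.30 and 0.14. LINC00884 and ATP13A3 (0.13 and 0.05), LINC00337 and ICMT (0.21 and 0.09), LINC01896 and SALL3 (0.16 and 0.11) and LINC00938 and ARID2 (0.04 and 0.04) also shared a direction. LINC01089 and the histone methyltransferase gene SETD1B were both below 0, at −0.26 and −0.15. LINC01521 and PATZ1, and LINC00857 and ANXA11, did not share one. Of the 8 LINC genes only 3, LINC00205, LINC01521 and LINC00857, had an interval that excluded 0. The direction of the others lay within counting error.

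Across neighbours in general, the ratio of a LINC gene showed little relation to that of its neighbour. For 56 genes the nearest coding gene lay within 50 kb and had at least 100 counts. Pearson's r between the 2 log2 ratios was 0.12 and Spearman's rho 0.19, and 38 pairs shared a direction. In the 56 pairs, 39 LINC genes and 31 neighbours were above 0, and the shared directions were not tested against these numbers. These pairs include the 8 divergent ones, of which 6 shared a direction, a similar share. The points share the same pair of libraries and scaling, and the LINC genes had a median of 268 counts where their neighbours had 2073. LINC00664, at 0.27 (−0.13 to 0.67), lies 2189 bases from ZNF429, which stood at 0.99. LINC01003, at 0.30, lies 27482 bases from the histone methyltransferase gene KMT2C, which stood at 0.37. LINC00294, at 0.27 (0.02 to 0.53), lies within the span of TCP11L1 on the same strand, which stood at 0.11, so its reads cannot be assigned with certainty.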

How the data were processed

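Poly(A)-selected RNA of 1 control and 1 PHF12 knockdown library of H1299 was sequenced. Columns were matched to samples by title. Per the submitters' processing notes, HISAT2, HTSeq and the hg38 build were used; the sources used here give no version, annotation or strand setting. The authors deposited raw counts per gene and TPM, which equal counts divided by listed length and scaled to 1000000.

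From the deposited counts, TMM-scaled library sizes were computed with edgeR 4.0.16 (R 4.3.3). Ratios carry no pseudocount, and intervals are exact conditional 95% Clopper-Pearson intervals of 2 Poisson counts. Their computation was checked on simulated Poisson counts, the model they assume, which says nothing of variation between real libraries. Since each group is 1 library, no test between them exists. Background shares use all genes with at least 100 summed counts. Near-identical stretches were searched among GENCODE release 29 transcripts with blastn 2.17.0 (98% identity, 500 bases). Python 3.11.15 was used for the rest.

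Genes named are the 12 with the highest mean TPM, the 10 highest and 10 lowest ratios whose interval excludes 0, genes of the lists, those next to the floor and the best covered of each arrangement; others were chosen after their values were seen. The genes and lists were chosen with earlier results of these data known. Alternatives were other scalings (total counts, DESeq2 1.42.0, TPM), a pseudocount, other floors, thinning and leaving out overlapping genes.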

Additional observations from a re-analysis of the deposited data

How the results depend on the processing

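No paired analysis was possible because each group has 1 library. Ratios of the 46 genes tracked were recomputed under the 5 alternatives that can alter a gene's own ratio (3 scalings, the pseudocount and thinning). All 230 values stayed inside the reported counting intervals. For the 3 scalings this could hardly fail, since their common shift is small beside the width of the intervals. The pseudocount and the thinning also alter a ratio little beside that width, so the outcome carries little weight for all 5. Other floors and leaving out genes cannot alter a gene's own ratio. The median log2 ratio of all genes moved from −0.01 with TMM scaling to 0.02 with the deposited TPM. A scaling moves every gene by the same amount, so the distance of the LINC median from it, 0.08, is the same by construction. The count of genes at least 1.5-fold higher, 7 as reported, was 4 with 0.5 added to each CPM, 3 among genes that overlap no listed gene, 13 with a floor of 50 summed counts and 15 with no floor and the pseudocount. At least 1.5-fold lower were 2 genes with the floor of 50 and 6 with no floor. In the same order, 2 and 1 genes were at least 2-fold higher, and 1 and 1 at least 2-fold lower. Intervals below 0, 13 as reported, numbered 8 with DESeq2 size factors and 7 with the deposited TPM. Upper bounds near 0 then passed it, those of LINC00888, LINC00470, LINC01347, LINC00863 and LINC00665 under both. Intervals above 0, 23 as reported, numbered 25 with total counts, 28 with DESeq2 size factors and 28 with the deposited TPM. Among genes without overlap they numbered 15. The share of all counts over both libraries, 0.126%, was 0.133% with the floor of 50, 0.117% with a floor of 200, 0.142% with no floor and 0.0952% without overlapping genes; fewer or more genes are summed in each. At 100 summed counts an interval spans more than a 2-fold range, so small differences of rare LINC genes were not detectable at this depth.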

Other observations

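Below the floor, 613 of the 2157 LINC genes had between 1 and 99 counts in sum and 1423 had none. Only 1 library held counts for some of them: 104 were seen only in the control library, with at most 4 counts, and 118 only in the knockdown library, with at most 5. Among the 49 genes with 50 to 99 counts, LINC01783 had 13 and 41 counts, a log2 ratio of 1.57 (0.64 to 2.60), and LINC01748 had 20 and 43 counts and one of 1.02 (0.22 to 1.86). LINC01012, on chromosome 6, had 41 and 18 counts and a ratio of −1.27 (−2.16 to −0.44). The choice of these 3 followed their values, and their counts are too few for more than a wide interval.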
